A study of Homo sapiens with 9 samples.

Results

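The 38 genes described here encode the machinery of G2 and mitosis, from the cyclins that switch on CDK1 to the motors and scaffolds of the spindle and of cytokinesis. They were selected as a list of gene symbols, and all 38 were found among the 60612 genes of the deposited table. RNA sequencing was done on 9 libraries of VCaP, a long-established line of human prostate cancer cells that expresses the androgen receptor and carries a TMPRSS2-ERG fusion. Cells received a first siRNA against KMT2C (siRNA 1), a second siRNA against KMT2C (siRNA 2) or a control siRNA. Transfection lasted 4 days in each group, and each group has 3 libraries. KMT2C encodes a histone methyltransferase that acts at enhancers. All groups came from the same parental line in medium with serum, and the knockdown is transient and partial, not a deletion. The labels do not say whether the 3 libraries of a group came from separate cultures, so p-values measure only the spread between these libraries, which may be technical.

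In dividing cells the transcripts of these genes accumulate in G2 and mitosis and are low in resting cells, so their sum is widely read as a measure of proliferation. Many of them share a promoter arrangement in which CCAAT boxes bind NF-Y and a nearby cell cycle homology region (CHR) binds the MuvB core. MuvB represses the genes as part of the DREAM complex in resting cells and activates them with B-MYB and FOXM1 in cycling cells. In prostate cancer cells, androgen receptor signalling and mitotic gene programmes are both tied to growth.

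The promoter letters of the genes with the strongest differences are shown first, since CHR and CCAAT elements are what these genes are known to share. Sequences are from RefSeq on GRCh38.p14, where 32 of the 38 genes had an entry; AURKA, BIRC5, FOXM1, UBE2C, TPX2 and TTK did not. Each line gives the 250 bases before the annotated start, on the gene's strand, and capitals mark matches on either strand to TTTGAA or TTTAAA (the G and A forms of the CHR) or to CCAAT. KIF2C (chr1:44739587-44739836, plus strand), HMMR (chr5:163460382-163460631, plus strand), BUB1 (chr2:110678064-110678313, minus strand) and CENPF (chr1:214602945-214603194, plus strand) are shown because they had the smallest adjusted p-values. CCNB2 (chr15:59104896-59105145, plus strand) was added after its values were seen, as a cyclin gene with both CHR forms and 4 CCAAT boxes. KIF2C has no full match in these 250 bases, since its TTTAAA runs across the start. The starts are those of RefSeq and differ from the deposited ones for some genes. The HMMR bases lie inside the deposited gene, which starts at 163460203, and those of KIF2C and CCNB2 end past the deposited start.
KIF2C: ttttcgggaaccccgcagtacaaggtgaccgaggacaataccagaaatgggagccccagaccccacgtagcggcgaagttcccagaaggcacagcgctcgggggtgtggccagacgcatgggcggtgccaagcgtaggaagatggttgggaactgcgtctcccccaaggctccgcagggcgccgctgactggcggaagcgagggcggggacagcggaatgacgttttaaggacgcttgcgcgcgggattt
HMMR: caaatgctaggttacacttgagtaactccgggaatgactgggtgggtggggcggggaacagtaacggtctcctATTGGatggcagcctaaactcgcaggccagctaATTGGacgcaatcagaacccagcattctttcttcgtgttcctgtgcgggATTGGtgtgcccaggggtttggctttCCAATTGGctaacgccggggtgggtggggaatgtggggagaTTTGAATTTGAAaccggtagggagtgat
BUB1: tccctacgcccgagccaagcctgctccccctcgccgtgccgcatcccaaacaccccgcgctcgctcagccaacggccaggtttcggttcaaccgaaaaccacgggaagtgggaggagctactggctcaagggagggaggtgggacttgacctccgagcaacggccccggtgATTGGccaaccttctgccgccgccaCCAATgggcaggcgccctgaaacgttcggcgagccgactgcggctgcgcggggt
CENPF: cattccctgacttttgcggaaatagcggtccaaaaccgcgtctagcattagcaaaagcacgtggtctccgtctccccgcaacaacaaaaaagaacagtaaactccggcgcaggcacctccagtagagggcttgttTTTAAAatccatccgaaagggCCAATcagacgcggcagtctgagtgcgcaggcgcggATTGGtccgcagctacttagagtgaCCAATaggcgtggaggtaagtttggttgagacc
CCNB2: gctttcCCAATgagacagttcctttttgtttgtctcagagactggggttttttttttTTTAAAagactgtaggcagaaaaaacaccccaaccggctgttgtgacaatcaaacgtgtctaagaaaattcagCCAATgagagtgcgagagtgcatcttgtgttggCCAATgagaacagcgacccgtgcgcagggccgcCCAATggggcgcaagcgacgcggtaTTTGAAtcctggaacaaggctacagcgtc

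Windows ran from 250 bases before to 50 bases after the start, and a gene was counted if any of its windows matched. TTTGAA was found in 24 of the 32 genes, against 18.2% of all 27305 genes with a RefSeq entry. TTTAAA, which reads the same on both strands, was found in 13 of 32 (40.6%), against 14.5% of all genes with an entry. CCAAT was found in 26 of 32 (81.2%), against 39.7% of all genes with an entry. Among the 8926 genes with an entry that were tested for expression here, the shares were 12.8%, 10.3% and 43.9%. Of the 32 genes, 29 held at least 1 CHR form, 23 of those held a CCAAT box too, and none lacked all the motifs. In the first window listed for each gene, the TTTGAA matches lay close to the start, at a median position of -28 bases. The TTTAAA matches there lay at a median of -65 bases and the CCAAT matches further upstream, at a median of -77 bases. Among the 18 genes with an entry that were lower with siRNA 1 than with siRNA 2, 16 had a CHR form, next to 29 of 32 overall. Such a match is a description of the letters and not evidence of a bound site.

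**Figure D1:**
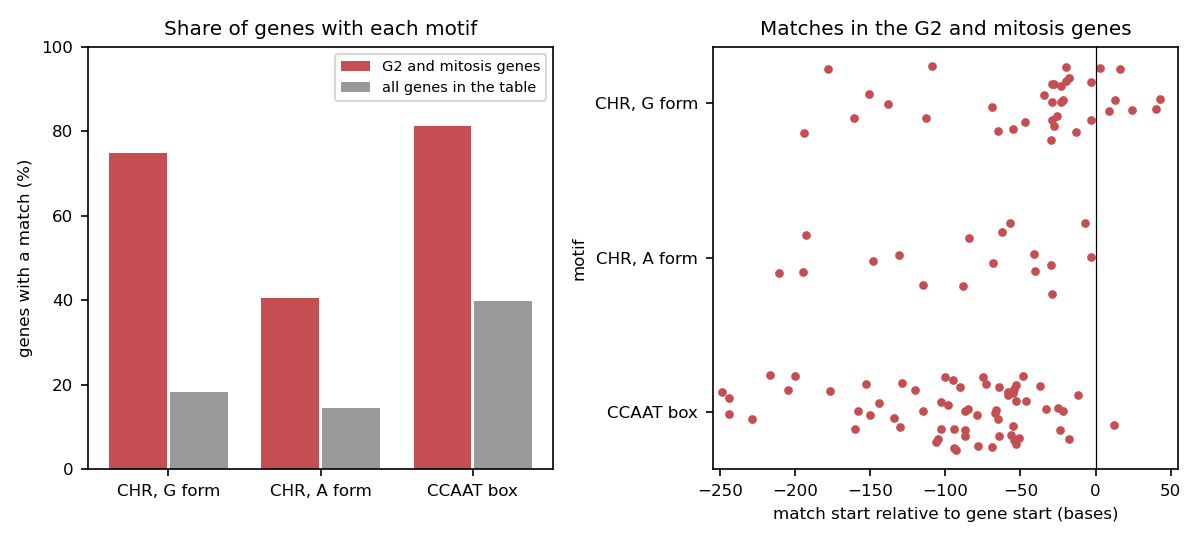
Left, the percentage of genes with at least 1 match to each motif, for the 32 G2 and mitosis genes with an entry and for all 27305 genes with an entry. Right, the start of each match in the 32 genes relative to the annotated start, in bases. The G form and the A form of the CHR and the CCAAT box were matched in 24, 13 and 26 of the 32 genes, against 18.2%, 14.5% and 39.7% of all genes with an entry, and most TTTGAA matches sit near the start.

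Depth was between 58462215 and 70726213 counts a library. KMT2C itself was at 1.54, 1.80 and 2.28 FPKM with siRNA 1, 1.72, 1.64 and 1.73 FPKM with siRNA 2, and 13.7, 12.1 and 12.9 FPKM in control cells (FPKM, fragments scaled to transcript length and to the size of the library). Both siRNAs lowered it, leaving 14.5% of the control level with siRNA 1 and 13.1% with siRNA 2 (exact two-sided permutation test of both against control, p = 0.0238, the smallest this test can give). In the edgeR quasi-likelihood test its level did not pass between siRNA 1 and siRNA 2, at a log2 fold change of 0.17 ± 0.12 (adjusted p = 0.309). All 9 luminal prostate markers were detected at the filter used for testing, at a summed 655 to 667 FPKM with siRNA 1, 722 to 732 FPKM with siRNA 2 and 944 to 992 FPKM in control cells. No fibroblast or endothelial marker passed that filter, and the fibroblast markers summed to at most 1.17 FPKM in any library. Of 4 immune markers CD14 alone passed, CD3E had no counts in any library, and the 4 summed to 1.32 to 1.81 FPKM with siRNA 1, 1.03 to 2.03 FPKM with siRNA 2 and 0.476 to 0.566 FPKM in control cells. Of 3 basal markers KRT14 alone passed, and the 3 summed to 6.27 to 7.86 FPKM with siRNA 1, 0.719 to 0.886 FPKM with siRNA 2 and 2.37 to 2.63 FPKM in control cells. Mitochondrial genes took 8.25% to 9.61% of counts with siRNA 1, 11.95% to 12.2% with siRNA 2 and 10.2% to 11.1% in control cells.

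VCaP cells expressed the G2 and mitosis genes strongly. All 38 passed the filter of at least 1 FPKM in at least 3 libraries, as did 12830 genes of the table. Their median control level was 18.8 FPKM, against 4.87 FPKM for all tested genes. TOP2A was highest at a control mean of 102 FPKM, and UBE2C (77.4 FPKM), TPX2 (72.7 FPKM), KIF20A (70.1 FPKM), CCNB1 (65.6 FPKM) and CDC20 (59.6 FPKM) came next. HMMR (6.61 FPKM), CENPA (4.95 FPKM) and BIRC5 (4.43 FPKM) were lowest.

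The 3 control libraries did not stand level with each other for these genes. In control library 2, 31 of the 38 genes were above the control mean, in library 1 it was 21 and in library 3 only 6. The summed level of the 38 genes was 979, 939 and 958 FPKM with siRNA 1, 1111, 1119.5 and 1144 FPKM with siRNA 2, and 1064, 1059.6 and 953 FPKM in control cells. By this sum the siRNA 2 libraries were the highest and lay close together, the siRNA 1 libraries were low, and control library 3 lay among them. In log2 CPM (counts scaled to the adjusted library size), the median gene stood 0.08, 0.06 and 0.09 above the control mean in the siRNA 2 libraries. In the siRNA 1 libraries that median was -0.07, -0.21 and -0.12. In the control libraries it was 0.01, 0.08 and -0.09, so each siRNA overlapped control. The median coefficient of variation over the 38 genes was 6.62% with siRNA 1, 4.48% with siRNA 2 and 8.44% in control cells.

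**Figure D2:**
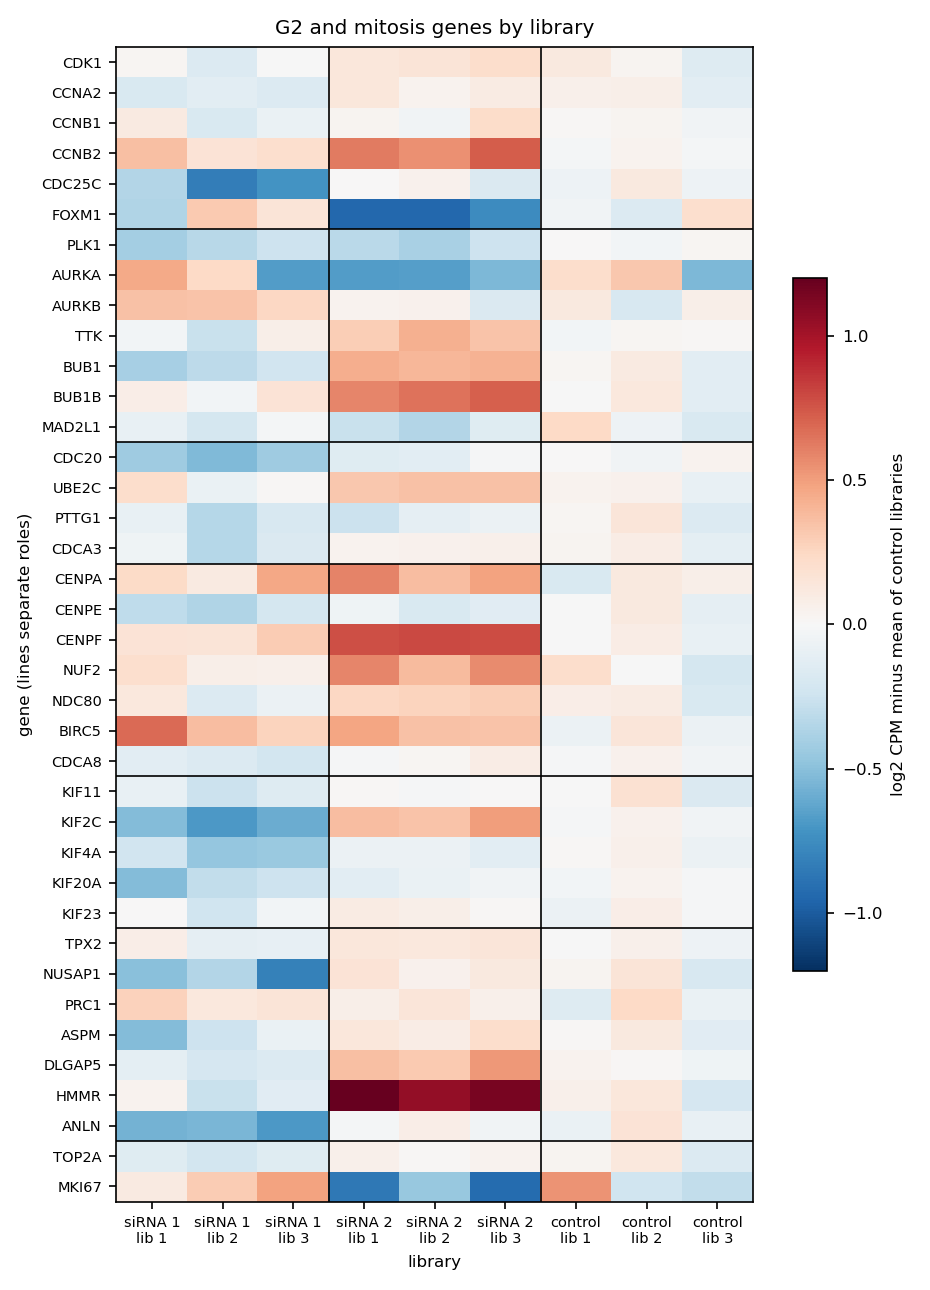
Log2 CPM (counts scaled to library size) of each G2 and mitosis gene in each library, minus the mean of the control libraries, with genes in rows grouped by role and libraries in columns; red is above and blue below the control mean. Of the 38 genes, 17, 10 and 12 stood above the control mean in the siRNA 1 libraries, 26, 26 and 25 in the siRNA 2 libraries, and 21, 31 and 6 in the control libraries.

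KIF2C, BUB1, HMMR and CENPF were among 20 genes of the set that were lower with siRNA 1 than with siRNA 2, while the average of both siRNAs had as many rises as falls. With siRNA 1, 4 of the 38 genes rose (10.5%, where 21.2% of all tested genes rose) and 11 fell (28.9%, where 20.5% of all tested genes fell), with a median log2 fold change of -0.12 against 0.01 over all tested genes. With siRNA 2, 12 rose (31.6%, against 24.4% of all tested genes) and 3 fell (7.89%, against 24.9%), with a median of 0.08 against 0.02. For the average of both siRNAs against control, 8 rose (against 23.0% of all tested genes) and 8 fell (against 24.5%), each 21.1% of the 38, which is near the background, and the median was -0.05. Set directly against siRNA 2, siRNA 1 gave lower levels of 20 genes (52.6%, against 18.9% of all tested genes) and higher levels of 3 (7.89%, against 20.6%), with a median of -0.24 against 0.00 over all tested genes. In either direction, 15 of the 38 genes passed with siRNA 1 (41.7% of all tested genes), 15 with siRNA 2 (49.3%), 16 for the average (47.5%) and 23 between the siRNAs (39.5%). In 27 of the 38 genes all 3 siRNA 1 libraries lay below all 3 siRNA 2 libraries in log2 CPM (25.5% of all tested genes), and in 3 genes all lay above (26.8% of all tested genes).

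The comparisons with control share the control libraries, so their values are set side by side below and are not independent of each other. The counts against control leaned on single libraries. Without control library 3, none of the 38 genes rose with siRNA 1 and 5 fell with siRNA 2, and the median log2 fold change was -0.19 with siRNA 1, 0.03 with siRNA 2 and -0.09 for the average. Without control library 2 the median was -0.07 with siRNA 1, 0.11 with siRNA 2 and 0.00 for the average, where it lay just above 0, so that its sign turned without that library. Without control library 1, without siRNA 1 library 1 or without siRNA 1 library 3, 2 genes rose with siRNA 1. For the average of both siRNAs, 4 genes fell without control library 1 or without control library 2, and 5 rose and 5 fell without siRNA 2 library 1. Between siRNA 1 and siRNA 2 the count of lower genes lay between 14 and 22 with any 1 library left out. The mitochondrial share and the luminal and basal marker sums, given above, did not overlap between the siRNAs, while the range of the immune marker sum with siRNA 2 contained that with siRNA 1; the part of the markers in the result was not tested. With mitochondrial genes taken out of the counts, 3 genes were higher and 22 lower with siRNA 1 than with siRNA 2. In bulk RNA, a smaller share of cells in G2 and mitosis and less RNA per such cell cannot be told apart.

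**Figure D3:**
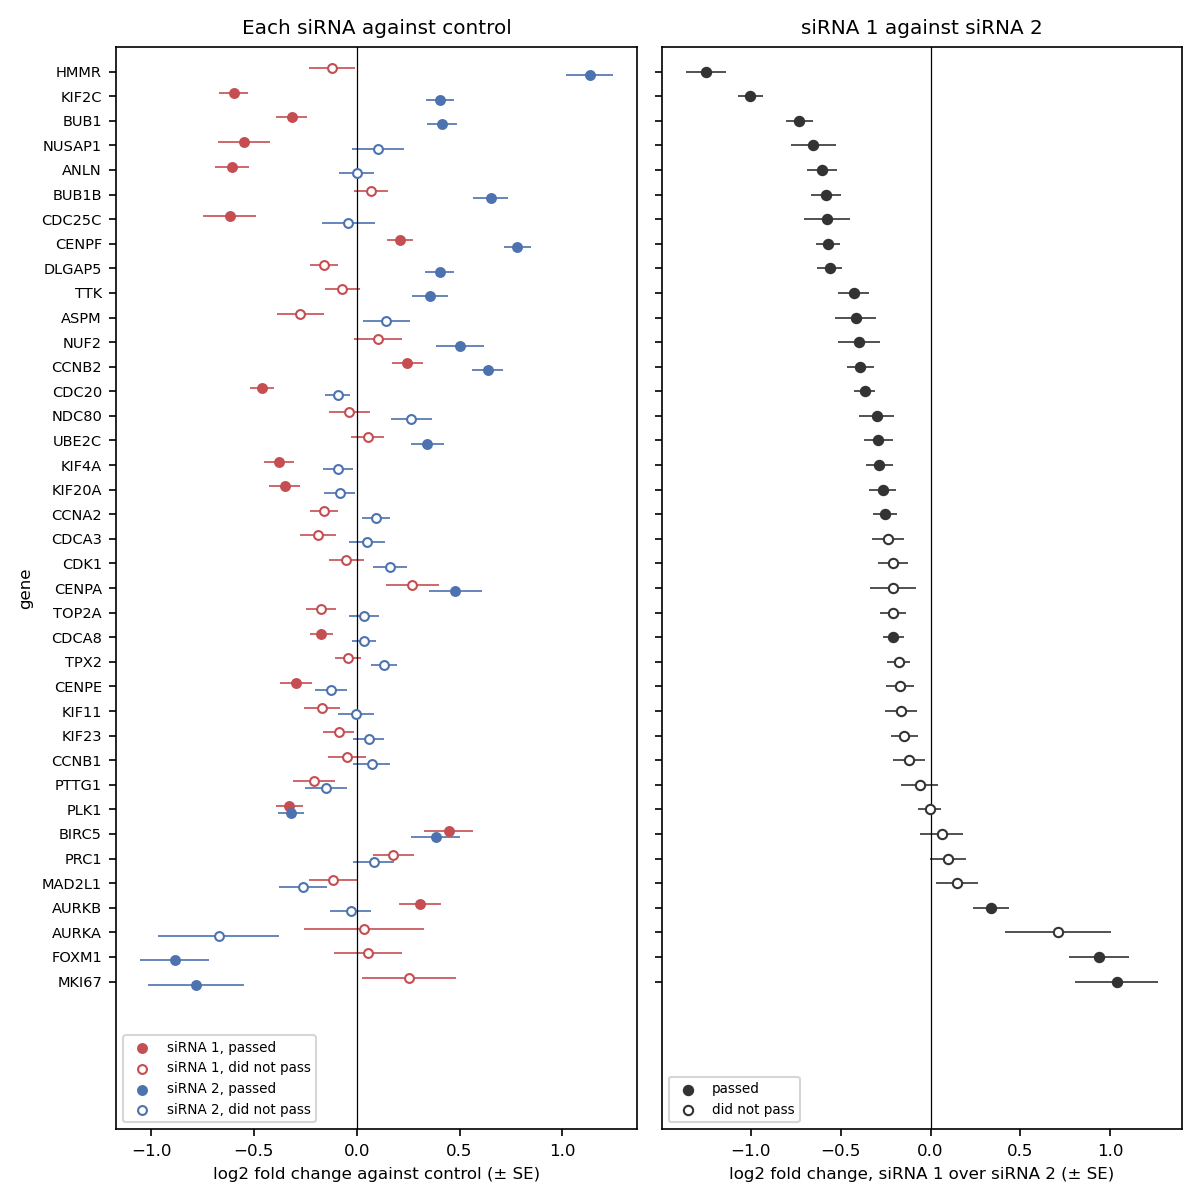
Log2 fold change of each gene with its standard error, for each siRNA against control (left, siRNA 1 in red and siRNA 2 in blue) and for siRNA 1 against siRNA 2 (right), with filled points for genes that passed the edgeR test at an adjusted p of 0.05. Genes run from HMMR at -1.25 to MKI67 at 1.04 between the siRNAs, and 31 of 38 lie below 0 there.

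Values given as log2FC, here and below, are log2 fold changes with their standard errors, and a gene rose or fell where its adjusted p was under 0.05. Counts in each role below can be read against the shares of all tested genes that rose and fell: 21.2% and 20.5% with siRNA 1, 24.4% and 24.9% with siRNA 2, and, between siRNA 1 and siRNA 2, 20.6% higher and 18.9% lower. With 2 to 7 genes in a role these counts are a description. Among the 6 genes of the cyclin and CDK1 engine, 1 rose and 1 fell with each siRNA against control, and 3 were lower and 1 higher with siRNA 1 than with siRNA 2. CCNB2 encodes a B-type cyclin that activates CDK1 at the onset of mitosis (chr15:59105126-59125045). It was at 25.4, 22.6 and 23.1 FPKM with siRNA 1, 31.4, 30.1 and 33.8 FPKM with siRNA 2, and 19.7, 20.1 and 19.2 FPKM in control cells. The 3 groups did not overlap, with siRNA 2 highest and control lowest. Its log2 fold change was 0.25 ± 0.07 (adjusted p = 0.0278) with siRNA 1, 0.64 ± 0.07 (adjusted p = 1.54e-04) with siRNA 2 and 0.44 ± 0.07 (adjusted p = 6.67e-04) for the average, and siRNA 1 against siRNA 2 had -0.39 ± 0.07 (adjusted p = 0.00338). CCNB1, the other B-type cyclin of the set and its close relative, averaged 64.5 ± 5.87 FPKM with siRNA 1, 71.6 ± 6.63 FPKM with siRNA 2 and 65.6 ± 2.20 FPKM in control cells (SD, n = 3 each), passed no comparison, and had a log2 fold change of 0.01 for the average. CDK1, the kinase that both cyclins activate, averaged 26.7 ± 1.63 FPKM with siRNA 1, 31.6 ± 0.880 FPKM with siRNA 2 and 27.3 ± 2.94 FPKM in control cells (SD, n = 3 each) and also passed none.

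CCNA2 encodes cyclin A2, which drives S phase and entry into mitosis. It was at 21.8, 23.1 and 22.4 FPKM with siRNA 1, 28.1, 26.5 and 27.2 FPKM with siRNA 2, and 26.0, 25.6 and 22.2 FPKM in control cells. The siRNA 1 libraries lay below every siRNA 2 library and overlapped control, and the difference between the siRNAs was log2FC -0.25 ± 0.07 (adjusted p = 0.0174). CDC25C encodes a phosphatase that removes the inhibitory phosphates from CDK1. It was at 12.7, 9.30 and 10.0 FPKM with siRNA 1, 16.7, 17.4 and 14.8 FPKM with siRNA 2, and 15.7, 17.3 and 15.3 FPKM in control cells. All siRNA 1 libraries lay below the other groups, which overlapped, and its log2 fold change was -0.62 ± 0.13 (adjusted p = 0.00513) with siRNA 1, -0.33 ± 0.11 (adjusted p = 0.0359) for the average and -0.58 ± 0.13 (adjusted p = 0.00755) against siRNA 2. FOXM1 encodes the forkhead factor that activates many G2 and mitosis genes. It was at 22.0, 35.9 and 31.9 FPKM with siRNA 1, 15.2, 15.2 and 17.3 FPKM with siRNA 2, and 27.9, 24.9 and 32.0 FPKM in control cells. Here siRNA 2 gave the lowest levels, below every other library, while siRNA 1 overlapped control and spread widely. FOXM1 fell with siRNA 2 by a log2 fold change of -0.88 ± 0.17 (adjusted p = 0.00242), did not pass with siRNA 1 (0.05 ± 0.17, adjusted p = 0.822), and was higher with siRNA 1 than with siRNA 2 by 0.94 ± 0.17 (adjusted p = 0.00250). For the average of both siRNAs FOXM1 was at log2FC -0.42 ± 0.14 (adjusted p = 0.0402).

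The CCNB2 rise with siRNA 1 was lost without control library 1 or 3 or siRNA 1 library 1, at 0.18 to 0.24 on the log2 scale. The CCNA2 difference was lost without siRNA 1 library 3 or siRNA 2 library 1 (log2FC -0.25 to -0.23). The average calls were lost for FOXM1 without control library 1 or 3 or siRNA 2 library 1 or 2 (log2FC -0.44 to -0.31) and for CDC25C without any 1 library other than siRNA 1 library 1 and siRNA 2 library 2 (log2FC -0.36 to -0.27).

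Of the 7 mitotic kinase and spindle checkpoint genes, 1 rose and 2 fell with siRNA 1, and 3 rose and 1 fell with siRNA 2, and between the siRNAs 3 were lower and 1 higher with siRNA 1. PLK1 encodes polo-like kinase 1, which drives centrosome maturation, spindle assembly and mitotic exit (chr16:23677656-23690366). It was at 12.6, 13.6 and 14.3 FPKM with siRNA 1, 13.7, 13.2 and 14.5 FPKM with siRNA 2, and 17.0, 16.1 and 16.7 FPKM in control cells. Every library of either KMT2C siRNA lay below every control library. PLK1 fell with siRNA 1 (log2FC -0.33 ± 0.06, adjusted p = 0.00370), with siRNA 2 (log2FC -0.32 ± 0.06, adjusted p = 0.00303) and on average (log2FC -0.32 ± 0.05, adjusted p = 0.00133), and the siRNAs differed by log2FC -0.01 ± 0.06 (adjusted p = 0.955), which did not pass.

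BUB1 encodes a kinetochore kinase that recruits checkpoint proteins and protects centromeric cohesion (chr2:110637528-110678063). It was at 7.48, 8.14 and 8.54 FPKM with siRNA 1, 13.8, 13.6 and 13.6 FPKM with siRNA 2, and 10.2, 10.5 and 8.92 FPKM in control cells. The siRNA 1 libraries were all below control and the siRNA 2 libraries all above it. Both moves passed, at log2FC -0.32 ± 0.07 (adjusted p = 0.00914) with siRNA 1 and log2FC 0.42 ± 0.07 (adjusted p = 0.00176) with siRNA 2, and the difference between them was log2FC -0.73 ± 0.07 (adjusted p = 1.16e-04). Their average was log2FC 0.05 ± 0.06 (adjusted p = 0.567). BUB1B encodes BUBR1, the part of the checkpoint complex that blocks CDC20. It was at 13.3, 12.5 and 14.3 FPKM with siRNA 1, 19.5, 20.6 and 21.3 FPKM with siRNA 2, and 12.7, 13.6 and 11.3 FPKM in control cells. Its siRNA 2 libraries stood above all others, while siRNA 1 overlapped control. BUB1B rose with siRNA 2 (log2FC 0.65 ± 0.08, adjusted p = 2.60e-04) and on average (log2FC 0.36 ± 0.07, adjusted p = 0.00361), and siRNA 1 against siRNA 2 had log2FC -0.58 ± 0.08 (adjusted p = 7.41e-04). TTK encodes MPS1, the kinase that starts checkpoint signalling at unattached kinetochores. It was at 14.4, 12.6 and 15.7 FPKM with siRNA 1, 18.7, 20.6 and 19.3 FPKM with siRNA 2, and 14.6, 14.8 and 14.7 FPKM in control cells. As with BUB1B, the siRNA 2 libraries were above the rest and siRNA 1 overlapped control. TTK rose with siRNA 2 (log2FC 0.36 ± 0.09, adjusted p = 0.00833) and was lower with siRNA 1 than with siRNA 2 (log2FC -0.43 ± 0.09, adjusted p = 0.00467).

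AURKB encodes the kinase of the chromosomal passenger complex, which corrects faulty attachments. It was at 16.6, 16.9 and 15.8 FPKM with siRNA 1, 13.9, 14.05 and 11.97 FPKM with siRNA 2, and 14.4, 11.3 and 13.5 FPKM in control cells. All siRNA 1 libraries were above all others, and siRNA 2 overlapped control. AURKB rose with siRNA 1 (log2FC 0.31 ± 0.10, adjusted p = 0.0389) and was higher with siRNA 1 than with siRNA 2 (log2FC 0.34 ± 0.10, adjusted p = 0.0283). AURKA, the centrosome and spindle pole kinase, was at 36.6, 32.3 and 17.1 FPKM with siRNA 1, 17.3, 17.5 and 18.9 FPKM with siRNA 2, and 31.4, 33.1 and 18.2 FPKM in control cells. Its levels fell into a high and a low range that cut across the groups: siRNA 1 library 3 and control library 3 lay with the siRNA 2 libraries, and no comparison passed (adjusted p between 0.0900 and 0.933). Without siRNA 1 library 3, AURKA passed as lower with siRNA 2 than in control (log2FC -0.68) and as higher with siRNA 1 than with siRNA 2 (log2FC 0.98), and without control library 3 it passed as lower with siRNA 2 than in control (log2FC -0.89). Both of these AURKA comparisons also passed under at least 1 alternative that left out no single library. MAD2L1 encodes MAD2, which binds CDC20 in the checkpoint. It averaged 7.92 ± 0.499 FPKM with siRNA 1, 7.31 ± 0.504 FPKM with siRNA 2 and 8.46 ± 1.46 FPKM in control cells (SD, n = 3 each) and passed no comparison. The AURKB rise with siRNA 1 was lost without control library 2 or 3, any siRNA 1 library, or siRNA 2 library 1 or 2 (log2FC 0.22 to 0.34). The AURKB difference between the siRNAs was lost without siRNA 1 library 1 or 2 or siRNA 2 library 3 (log2FC 0.27 to 0.32).

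Of the 4 genes of anaphase onset and mitotic exit, 2 were lower with siRNA 1 than with siRNA 2. CDC20 encodes the activator that lets the anaphase-promoting complex (APC/C) destroy securin and cyclin B (chr1:43358981-43363203). It was at 44.4, 42.4 and 45.3 FPKM with siRNA 1, 55.9, 57.2 and 61.1 FPKM with siRNA 2, and 60.8, 57.5 and 60.7 FPKM in control cells. Both other groups overlapped and lay above the siRNA 1 libraries. CDC20 fell with siRNA 1 (log2FC -0.46 ± 0.06, adjusted p = 4.45e-04) and on average (log2FC -0.28 ± 0.05, adjusted p = 0.00211), had log2FC -0.09 ± 0.06 (adjusted p = 0.225) with siRNA 2, and differed between the siRNAs by log2FC -0.37 ± 0.06 (adjusted p = 0.00144). UBE2C encodes the ubiquitin-conjugating enzyme that works with the APC/C. It was at 90.0, 74.9 and 79.7 FPKM with siRNA 1, 100.4, 103 and 102 FPKM with siRNA 2, and 80.7, 79.7 and 71.8 FPKM in control cells. The siRNA 2 libraries were above all others, and siRNA 1 overlapped control. UBE2C rose with siRNA 2 (log2FC 0.34 ± 0.08, adjusted p = 0.00760) and on average (log2FC 0.20 ± 0.07, adjusted p = 0.0475), and was lower with siRNA 1 than with siRNA 2 (log2FC -0.29 ± 0.08, adjusted p = 0.0212). Securin, encoded by PTTG1, averaged 24.4 ± 1.91 FPKM with siRNA 1, 26.0 ± 1.76 FPKM with siRNA 2 and 27.8 ± 3.07 FPKM in control cells (SD, n = 3 each). CDCA3, which encodes a trigger of mitotic entry, averaged 8.11 ± 0.715 FPKM with siRNA 1, 9.77 ± 0.0918 FPKM with siRNA 2 and 9.09 ± 0.728 FPKM in control cells (SD, n = 3 each). Neither of them passed a comparison. The average call of UBE2C was lost without any 1 library other than siRNA 1 libraries 1 and 2 (log2FC 0.15 to 0.23), and its difference between the siRNAs was lost without siRNA 1 library 2 or 3 or siRNA 2 library 2 or 3 (log2FC -0.29 to -0.23).

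Of the 7 centromere and kinetochore genes, 4 rose and none fell with siRNA 2 (24.4% and 24.9% of all tested genes), 2 rose and 2 fell with siRNA 1, and 4 were lower with siRNA 1 than with siRNA 2. CENPF, a large kinetochore protein that accumulates in G2 (chr1:214603195-214664571), was at 20.3, 20.5 and 22.7 FPKM with siRNA 1, 31.9, 32.5 and 32.0 FPKM with siRNA 2, and 18.3, 19.0 and 16.7 FPKM in control cells. The 3 groups did not overlap: siRNA 2 was highest and control lowest. CENPF rose with siRNA 1 (log2FC 0.21 ± 0.06, adjusted p = 0.0300), with siRNA 2 (log2FC 0.78 ± 0.06, adjusted p = 2.13e-05) and on average (log2FC 0.50 ± 0.06, adjusted p = 1.60e-04), and siRNA 1 against siRNA 2 had log2FC -0.57 ± 0.06 (adjusted p = 2.08e-04). CENPA encodes the histone H3 variant that marks the centromere. It was at 5.80, 5.46 and 6.96 FPKM with siRNA 1, 7.75, 6.66 and 7.15 FPKM with siRNA 2, and 4.40, 5.30 and 5.14 FPKM in control cells. All libraries of either siRNA were above all control libraries, and the siRNA groups overlapped each other. CENPA rose with siRNA 2 (log2FC 0.48 ± 0.13, adjusted p = 0.0142) and on average (log2FC 0.38 ± 0.11, adjusted p = 0.0246), while siRNA 1 had log2FC 0.27 ± 0.13 (adjusted p = 0.130), which did not pass. BIRC5 encodes survivin, the passenger complex subunit that targets Aurora B to centromeres. It was at 7.11, 5.89 and 5.44 FPKM with siRNA 1, 6.36, 5.88 and 5.80 FPKM with siRNA 2, and 4.28, 4.85 and 4.17 FPKM in control cells. Both siRNA groups lay above control and overlapped each other. BIRC5 rose with siRNA 1 (log2FC 0.45 ± 0.12, adjusted p = 0.0172), with siRNA 2 (log2FC 0.38 ± 0.12, adjusted p = 0.0274) and on average (log2FC 0.41 ± 0.11, adjusted p = 0.0115).

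NUF2 and NDC80 encode partners in the NDC80 complex, which holds microtubule ends at the kinetochore. NUF2 was at 7.996, 7.47 and 7.35 FPKM with siRNA 1, 10.8, 9.38 and 10.6 FPKM with siRNA 2, and 8.14, 6.85 and 5.92 FPKM in control cells. Its siRNA 2 libraries stood above all others, and siRNA 1 overlapped control. NUF2 rose with siRNA 2 (log2FC 0.50 ± 0.12, adjusted p = 0.00663) and on average (log2FC 0.30 ± 0.10, adjusted p = 0.0370), and was lower with siRNA 1 than with siRNA 2 (log2FC -0.40 ± 0.12, adjusted p = 0.0245). NDC80 was at 12.4, 10.4 and 10.9 FPKM with siRNA 1, 13.9, 14.2 and 14.3 FPKM with siRNA 2, and 12.1, 11.98 and 9.83 FPKM in control cells. Its siRNA 2 libraries also stood above all others and siRNA 1 overlapped control, with a difference between the siRNAs of log2FC -0.30 ± 0.10 (adjusted p = 0.0418), and neither comparison with control passed (0.806 with siRNA 1 and 0.0550 with siRNA 2, adjusted p). CENPE encodes the kinesin that carries chromosomes to the spindle equator. It was at 6.04, 5.93 and 6.56 FPKM with siRNA 1, 7.46, 6.87 and 6.998 FPKM with siRNA 2, and 7.53, 7.998 and 6.84 FPKM in control cells. The siRNA 1 libraries were below the other groups, which overlapped, and CENPE fell with siRNA 1 (log2FC -0.30 ± 0.08, adjusted p = 0.0139) and on average (log2FC -0.21 ± 0.07, adjusted p = 0.0272). CDCA8 encodes borealin, another passenger complex subunit. It was at 29.5, 29.4 and 28.2 FPKM with siRNA 1, 33.1, 34.2 and 35.5 FPKM with siRNA 2, and 32.4, 33.1 and 31.0 FPKM in control cells. Its siRNA 1 libraries were the lowest, by a small step: log2FC -0.17 ± 0.06 (adjusted p = 0.0396) against control and log2FC -0.21 ± 0.06 (adjusted p = 0.0193) against siRNA 2.

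Several of these kinetochore calls were lost when 1 library was left out. With siRNA 1 against control, they were CENPF without control library 1 or 3 or siRNA 1 library 3 (log2FC 0.15 to 0.21), BIRC5 without control library 1 or 3 (log2FC 0.41), and CDCA8 without any 1 library other than siRNA 1 library 1 (log2FC -0.19 to -0.14). With siRNA 2 they were BIRC5 without control library 1 or 3 or siRNA 2 library 1 or 2 (log2FC 0.34 to 0.40) and CENPA without siRNA 2 library 1 (log2FC 0.42). On average they were CENPA without control library 1 or siRNA 2 library 1 (log2FC 0.29 to 0.35), CENPE without control library 1 or 2, siRNA 1 library 2 or siRNA 2 library 2 or 3 (log2FC -0.22 to -0.15), and NUF2 without any 1 library other than control library 1 and siRNA 2 library 2 (log2FC 0.21 to 0.31). Between the siRNAs they were NUF2 without siRNA 1 library 2 or 3 or siRNA 2 library 1 or 3 (log2FC -0.38 to -0.36), NDC80 without any 1 library other than control library 3 and siRNA 1 library 1 (log2FC -0.31 to -0.24), and CDCA8 without siRNA 1 library 3 or siRNA 2 library 2 or 3 (log2FC -0.21 to -0.18).

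None of the 5 kinesin motor genes rose with siRNA 1 and 3 fell, while 1 rose with siRNA 2. KIF2C encodes MCAK, a kinesin that dismantles microtubules at centromeres to release wrong attachments (chr1:44739818-44767767). It was at 17.4, 15.8 and 16.8 FPKM with siRNA 1, 33.2, 32.8 and 36.4 FPKM with siRNA 2, and 24.99, 25.5 and 23.9 FPKM in control cells. All siRNA 1 libraries were below control and all siRNA 2 libraries above it. KIF2C fell with siRNA 1 (log2FC -0.60 ± 0.07, adjusted p = 2.62e-04) and rose with siRNA 2 (log2FC 0.41 ± 0.07, adjusted p = 0.00138). Between the siRNAs it differed by log2FC -1.005 ± 0.07 (adjusted p = 1.49e-05), so that siRNA 1 cells held 2.01-fold less of this transcript than siRNA 2 cells, and the average was log2FC -0.10 ± 0.06 (adjusted p = 0.220). KIF4A encodes a chromosome-bound kinesin that shortens the overlap of midzone microtubules. It was at 24.1, 21.0 and 21.2 FPKM with siRNA 1, 27.9, 28.1 and 26.7 FPKM with siRNA 2, and 28.96, 29.2 and 26.6 FPKM in control cells. Each siRNA 1 library lay below both other groups, which overlapped. KIF4A fell with siRNA 1 (log2FC -0.38 ± 0.07, adjusted p = 0.00373) and on average (log2FC -0.23 ± 0.06, adjusted p = 0.0146), and differed between the siRNAs by log2FC -0.29 ± 0.07 (adjusted p = 0.0146). Its retrocopy KIF4B was at a mean of 0.208 FPKM with siRNA 1, 0.345 FPKM with siRNA 2 and 0.271 FPKM in control cells.

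KIF20A encodes MKLP2, a kinesin that carries the passenger complex to the midzone. It was at 49.0, 58.9 and 60.3 FPKM with siRNA 1, 66.4, 69.4 and 70.6 FPKM with siRNA 2, and 69.7, 71.8 and 69.0 FPKM in control cells. As for KIF4A, siRNA 1 was lowest and siRNA 2 overlapped control. KIF20A fell with siRNA 1 (log2FC -0.35 ± 0.08, adjusted p = 0.00619) and on average (log2FC -0.22 ± 0.06, adjusted p = 0.0232), and differed between the siRNAs by log2FC -0.27 ± 0.08 (adjusted p = 0.0221). KIF11, the motor that pushes spindle poles apart, averaged 27.0 ± 1.27 FPKM with siRNA 1, 31.0 ± 0.219 FPKM with siRNA 2 and 29.9 ± 3.64 FPKM in control cells (SD, n = 3 each). KIF23, the centralspindlin motor, averaged 16.3 ± 1.28 FPKM with siRNA 1, 18.4 ± 0.547 FPKM with siRNA 2 and 17.0 ± 0.747 FPKM in control cells (SD, n = 3 each). Neither passed a comparison. On average against control, the KIF4A call was lost without control library 1 or 2 (log2FC -0.23 to -0.20) and the KIF20A call without control library 2 or 3 or siRNA 2 library 1 (log2FC -0.22 to -0.19). Between the siRNAs, the KIF4A call was lost without siRNA 1 library 2 or 3 (log2FC -0.25 to -0.24) and the KIF20A call without siRNA 2 library 2 or 3 (log2FC -0.26 to -0.25).

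Of the 7 spindle and cytokinesis genes, 5 were lower and none higher with siRNA 1 than with siRNA 2 (18.9% and 20.6% of all tested genes). HMMR encodes a hyaluronan-binding protein that organises spindle poles (chr5:163460203-163491941). It was at 6.81, 5.62 and 6.11 FPKM with siRNA 1, 15.9, 14.3 and 15.0 FPKM with siRNA 2, and 6.99, 7.15 and 5.67 FPKM in control cells. The siRNA 2 libraries stood far above all others, and siRNA 1 overlapped control. HMMR rose 2.19-fold with siRNA 2 (log2FC 1.13 ± 0.11, adjusted p = 6.14e-05) and rose on average (log2FC 0.51 ± 0.10, adjusted p = 0.00295), had log2FC -0.12 ± 0.11 (adjusted p = 0.432) with siRNA 1, and differed between the siRNAs by log2FC -1.25 ± 0.11 (adjusted p = 6.06e-05). DLGAP5 encodes HURP, which stabilises kinetochore microtubules. It was at 16.2, 15.6 and 15.9 FPKM with siRNA 1, 23.3, 22.7 and 26.0 FPKM with siRNA 2, and 18.3, 17.5 and 16.7 FPKM in control cells. The siRNA 2 libraries were highest, and the siRNA 1 libraries lay just under control. DLGAP5 rose with siRNA 2 (log2FC 0.40 ± 0.07, adjusted p = 0.00137), had log2FC -0.16 ± 0.07 (adjusted p = 0.0955) with siRNA 1, and differed between the siRNAs by log2FC -0.56 ± 0.07 (adjusted p = 3.18e-04). ASPM encodes a spindle pole protein named for its role in microcephaly. It was at 7.45, 9.23 and 10.3 FPKM with siRNA 1, 12.2, 11.8 and 12.8 FPKM with siRNA 2, and 10.9, 11.5 and 9.61 FPKM in control cells. The siRNA groups did not overlap, siRNA 1 overlapped control, and the difference between the siRNAs was log2FC -0.42 ± 0.11 (adjusted p = 0.0187).

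NUSAP1 encodes a protein that bundles microtubules near chromosomes. It was at 19.4, 22.0 and 15.8 FPKM with siRNA 1, 31.8, 29.5 and 30.6 FPKM with siRNA 2, and 28.4, 30.2 and 23.7 FPKM in control cells. The siRNA 1 libraries were below both other groups, which overlapped. NUSAP1 fell with siRNA 1 (log2FC -0.55 ± 0.13, adjusted p = 0.00861), had log2FC 0.10 ± 0.13 (adjusted p = 0.531) with siRNA 2, and differed between them by log2FC -0.65 ± 0.13 (adjusted p = 0.00389). ANLN encodes anillin, the scaffold of the contractile ring. It was at 10.3, 10.6 and 9.55 FPKM with siRNA 1, 15.4, 16.7 and 15.2 FPKM with siRNA 2, and 14.6, 16.9 and 14.1 FPKM in control cells. Again siRNA 1 was below the rest and siRNA 2 overlapped control. ANLN fell with siRNA 1 (log2FC -0.61 ± 0.08, adjusted p = 6.59e-04) and on average (log2FC -0.30 ± 0.07, adjusted p = 0.00807), did not pass with siRNA 2 (adjusted p = 0.995), and differed between the siRNAs by log2FC -0.61 ± 0.08 (adjusted p = 6.58e-04). TPX2, the activator of Aurora A, averaged 71.7 ± 4.44 FPKM with siRNA 1, 82.9 ± 0.417 FPKM with siRNA 2 and 72.7 ± 3.21 FPKM in control cells (SD, n = 3 each). PRC1, the midzone bundler, averaged 28.7 ± 1.29 FPKM with siRNA 1, 27.5 ± 0.965 FPKM with siRNA 2 and 24.9 ± 3.51 FPKM in control cells (SD, n = 3 each). Neither of these passed a comparison. The ASPM difference was lost without siRNA 2 library 3 (log2FC -0.38).

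**Figure D4:**
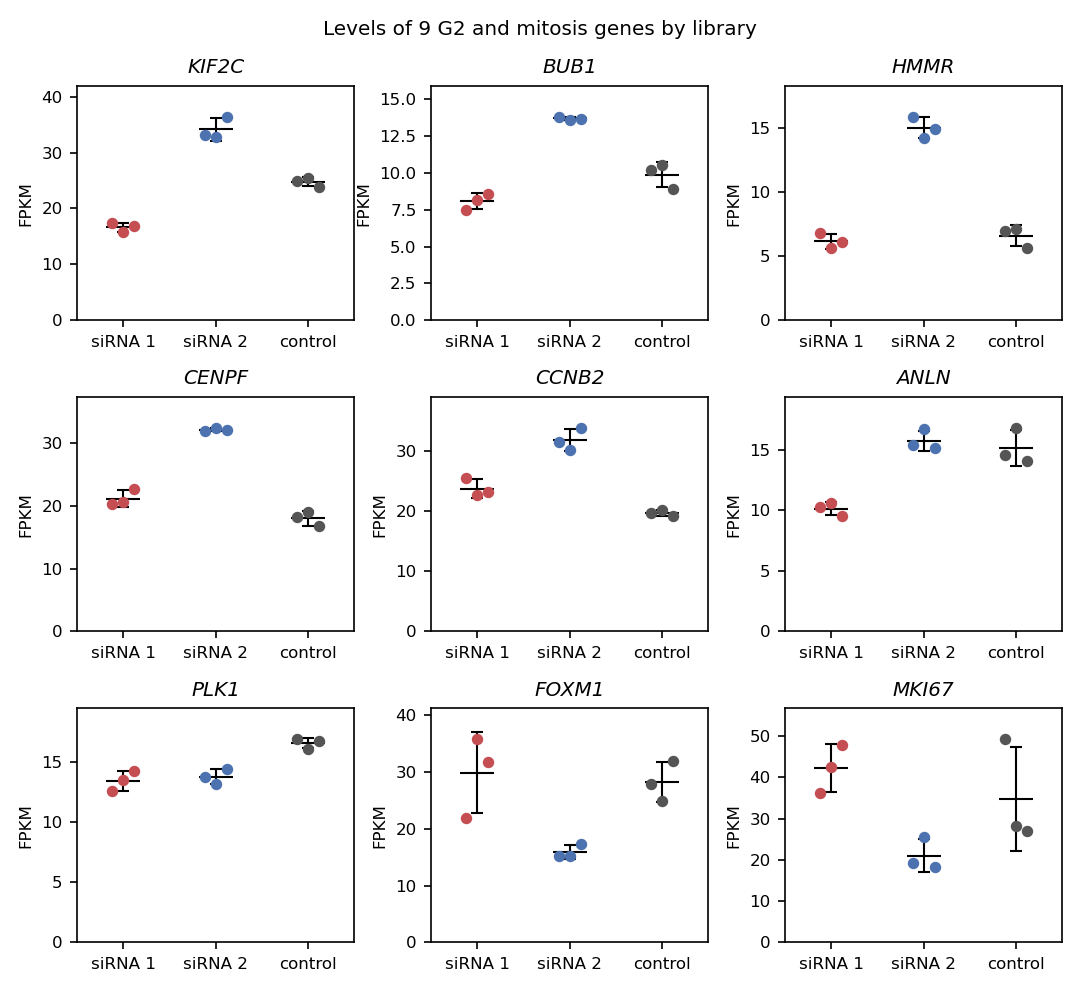
FPKM of 9 of the G2 and mitosis genes in each library (points), with the mean and SD of each group of 3 libraries (bars). KIF2C and BUB1 lay below control with siRNA 1 and above it with siRNA 2, PLK1 lay below control with both, and FOXM1 and MKI67 were lowest with siRNA 2.

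MKI67 and TOP2A are the usual proliferation markers of the set. MKI67 encodes Ki-67, which coats mitotic chromosomes. It was at 36.2, 42.6 and 47.9 FPKM with siRNA 1, 19.2, 25.6 and 18.3 FPKM with siRNA 2, and 49.4, 28.2 and 27.0 FPKM in control cells. The siRNA 2 libraries were below all others, and siRNA 1 overlapped control, where library 1 stood apart from the other two. MKI67 fell with siRNA 2 (log2FC -0.78 ± 0.23, adjusted p = 0.0214), had log2FC 0.25 ± 0.23 (adjusted p = 0.412) with siRNA 1, and was higher with siRNA 1 than with siRNA 2 by log2FC 1.04 ± 0.23 (adjusted p = 0.00788). Without control library 1 the siRNA 1 libraries stood above the remaining control libraries and passed as higher, at a log2 fold change of 0.57 (adjusted p = 0.0290; under the other alternatives it lay between 0.11 and 0.35, with adjusted p between 0.315 and 0.766). In the same setting its fall with siRNA 2 was -0.46 on the log2 scale, and without siRNA 2 library 1 or 3 the call was lost (-0.72 to -0.69). TOP2A, the topoisomerase that untangles sister chromatids, averaged 92.0 ± 2.00 FPKM with siRNA 1, 109 ± 1.00 FPKM with siRNA 2 and 102 ± 10.7 FPKM in control cells (SD, n = 3 each) and passed no comparison. MKI67, FOXM1 and AURKB were the 3 genes of the set that were higher with siRNA 1 than with siRNA 2.

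Other values, given here as log2 fold changes, did not pass in the main test and passed with 1 library left out. Against control with siRNA 1 these were TOP2A (-0.25), KIF11 (-0.25) and CCNA2 (-0.22) without control library 3, ASPM (-0.39) without siRNA 1 library 3, CDCA3 (-0.26) without siRNA 1 library 1 and PRC1 (0.31) without control library 2. With siRNA 2 they were NDC80 (0.27) and TPX2 (0.13) without siRNA 1 library 1, MAD2L1 (-0.35) without control library 3 and PRC1 (0.21) without control library 2. For the average they were TTK (0.19) without siRNA 1 library 2, PTTG1 (-0.26) without control library 3 and PRC1 (0.26) without control library 2. Between the siRNAs the values were TPX2 (-0.24) and CDCA3 (-0.31) without siRNA 1 library 1, CDK1 (-0.21) without control library 3 and TOP2A (-0.21) without control library 2 or 3. Some of these also passed under at least 1 alternative that left out no single library. They were NDC80 and TPX2 with siRNA 2, and TPX2, CDCA3 and TOP2A between the siRNAs.

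GENCODE release 29 gave the deposited start and end for only 10 of the 38 genes, so overlaps in the annotation used for counting may differ. Exons of 17 of the 38 genes overlap those of another gene in that release, on the same or the other strand. Whether counting used strand is not given in the sources used here. Among the genes that passed a comparison, those with such an overlap are CCNA2 (with EXOSC9), CDC25C (FAM53C), FOXM1 (ITFG2), PLK1 (ERN2), BUB1B (the readthrough BUB1B-PAK6), CENPA (SLC35F6), NUF2 (RGS5), KIF4A (PDZD11), KIF20A (BRD8 and CDC23), HMMR (HMMR-AS1) and ANLN (KIAA0895), as well as KIF2C and NUSAP1 with genes that carry only clone names, and their values may hold reads of the partner.

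Beyond the 38, 156 other genes of the same processes were listed by role, and 153 of them were tested. For the average of both siRNAs 24 rose (15.7%, against 23.0% of all tested genes) and 36 fell (23.5%, against 24.5%), with a median log2 fold change of -0.06. Between siRNA 1 and siRNA 2, 33 were higher (21.6%, against 20.6% of all tested genes) and 27 lower (17.6%, against 18.9%). Pooled in this way they lay near the background, where the 38 had 3 higher and 20 lower. Single lists varied around the same 20.6% and 18.9% of all tested genes. Of 25 other kinesin and spindle genes 4 were higher and 9 lower. Of 16 APC/C genes 4 were higher, a share near that of all tested genes, and none was lower. In lists this small such counts are a description. The difference between the lists was not tested. From each list, the 2 genes that ranked first by adjusted p in the average of both siRNAs are named below.

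Cohesin, which holds sister chromatids together, had 9 of 16 genes lower (56.2%, against 24.5% of all tested genes) and 1 higher (6.25%, against 23.0%) on average, with a median log2FC of -0.21. CDCA5 encodes sororin, which protects cohesin, and had a log2FC of -0.03 with siRNA 1, -1.61 with siRNA 2 and an average of -0.82 ± 0.08 (adjusted p = 4.53e-05). RAD21, the ring's kleisin subunit, had an average of log2FC -0.45 ± 0.05 (adjusted p = 1.84e-04). Of 16 other regulators of mitotic entry, 1 rose (6.25%) and 5 fell (31.2%) on average, and these shares and those of the lists that follow are to be set against the same 23.0% and 24.5%. ARPP19, an inhibitor of the phosphatase PP2A, was at a log2FC of -1.28 with siRNA 1, -0.12 with siRNA 2 and -0.70 ± 0.06 (adjusted p = 1.94e-05) on average. CDC25B, a phosphatase that activates CDK1, was at a log2FC of -0.55 with siRNA 1, -1.55 with siRNA 2 and -1.05 ± 0.12 (adjusted p = 1.26e-04) on average.

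The APC/C and its regulators had 2 genes higher (12.5%) and 3 lower (18.8%) of 16 on average. Its cullin subunit ANAPC2 was at log2FC -0.46 ± 0.07 (adjusted p = 8.64e-04), and FZR1, which encodes the late mitotic activator CDH1, was at log2FC -0.83 ± 0.16 (adjusted p = 0.00309). Of 17 genes of the DREAM, MuvB, B-MYB and NF-Y complexes that control the CHR and CCAAT elements, 1 rose (5.88%) and 2 fell (11.8%) on average, and 6 were higher (35.3%, against 20.6% of all tested genes) and 2 lower (11.8%, against 18.9%) with siRNA 1 than with siRNA 2. On average, TFDP1, the E2F partner, was at log2FC 0.31 ± 0.07 (adjusted p = 0.00525). Its mean was 25.5 FPKM with siRNA 1, 16.6 FPKM with siRNA 2 and 16.1 FPKM in control cells, and siRNA 2 overlapped control. The MuvB subunit LIN52 was at log2FC -0.56 ± 0.13 (adjusted p = 0.00684) on average. Its mean was 1.95 FPKM with siRNA 1, 2.70 FPKM with siRNA 2 and 3.29 FPKM in control cells. Condensin, which compacts mitotic chromosomes, had 1 of 8 genes higher (12.5%) and none lower on average. That gene was NCAPD2 (log2FC 0.39 ± 0.05, adjusted p = 3.29e-04), and its counterpart NCAPD3 in the other condensin complex had log2FC -0.16 ± 0.06 (adjusted p = 0.0596). Between the siRNAs, 4 of the 8 condensin genes were lower with siRNA 1, against 18.9% of all tested genes.

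Of 38 other centromere and kinetochore genes, 9 rose (23.7%) and 7 fell (18.4%) on average. ZW10, which brings dynein to kinetochores, rose by log2FC 1.09 ± 0.06 (adjusted p = 2.69e-06), and TRIP13, which disassembles the checkpoint complex, rose by log2FC 0.49 ± 0.06 (adjusted p = 1.94e-04). Of 25 other kinesin and spindle genes, 5 of the 25 rose and 4 fell on average, no more than in the background. With siRNA 1, 2 rose and 7 fell (21.2% and 20.5% of all tested genes), and with siRNA 2, 7 rose and 2 fell (24.4% and 24.9%). Set against siRNA 2, siRNA 1 gave 4 higher and 9 lower (20.6% and 18.9% of all tested genes), the same lean as in the 38. On average, KIF22, a chromosome-arm kinesin, had log2FC -0.52 ± 0.05 (adjusted p = 9.19e-05), and NUMA1, a spindle pole organiser, had log2FC -0.45 ± 0.07 (adjusted p = 7.38e-04). Among 9 other cytokinesis genes 1 rose (11.1%) and 3 fell (33.3%) on average. RACGAP1, the partner of KIF23 in centralspindlin, had log2FC -0.40 ± 0.07 (adjusted p = 0.00159), and CEP55, which recruits the abscission machinery, had log2FC -0.29 ± 0.07 (adjusted p = 0.00634).

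Of 8 tested genes that arrest cells in G2, 3 rose and 3 fell on average (37.5% each, against 23.0% and 24.5% of all tested genes), and 3 were higher and none lower with siRNA 1 than with siRNA 2 (20.6% and 18.9% of all tested genes). CDKN1A encodes the CDK inhibitor p21. Its log2 fold change was -0.39 ± 0.16 (adjusted p = 0.0869) with siRNA 1, -1.99 ± 0.17 (adjusted p = 2.47e-05) with siRNA 2 and -1.19 ± 0.14 (adjusted p = 1.59e-04) on average, with a difference between the siRNAs of 1.60 ± 0.17 (adjusted p = 1.38e-04). BTG2, an antiproliferative target of p53, was at log2FC -0.79 ± 0.06 (adjusted p = 3.47e-05) with siRNA 1, log2FC -2.52 ± 0.07 (adjusted p = 1.33e-07) with siRNA 2 and log2FC -1.66 ± 0.05 (adjusted p = 2.10e-07) on average, with a difference of log2FC 1.72 ± 0.06 (adjusted p = 1.18e-06). Both of these genes were lower with siRNA 2 than with siRNA 1. Of the 8 tested arrest genes, 3 rose and 3 fell with siRNA 2 against control (24.4% and 24.9% of all tested genes). Their log2 fold changes ran from -2.52 to 1.86. Any link between the arrest genes and the levels of the 38 genes was not tested.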

How the data were processed

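Total RNA of 9 VCaP libraries was sequenced on an Illumina instrument. The authors deposited 1 table of 60612 genes. Per the file headers it holds counts, and the deposited values were handled like expected counts: they are whole numbers, and the value 4 is the most common low value tabulated (11286 times), next to 6621 at 1, 5430 at 2, 4677 at 3 and 5914 at 8. A count may therefore stand for less than 1 fragment, and division by 4 was tried as an alternative. The deposited table also gives FPKM per the file headers; within a gene of the set the ratio of FPKM to CPM was constant within 1.04%. The submitters' processing notes name Bowtie 0.12.2 and the builds mm8 and hg38; the counting tool, annotation and strand setting appear in no source used here.

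Genes with at least 1 FPKM in at least 3 libraries (12830) were tested with edgeR 4.0.16 (R 4.3.3), by the quasi-likelihood F test with TMM scaling on all 9 libraries and 1 mean per group, two-sided. P-values were adjusted by Benjamini-Hochberg over all tested genes, with a threshold of 0.05. The standard error is the log2 fold change divided by the root of F. Counts were of 58462215 to 70726213 a library. KMT2C was also tested by an exact permutation test over 84 splits. In simulated counts with the real means, 67, 67 and 66 of 12830 genes were changed by 0.5, 1 and 2 on the log2 scale. For the average of both siRNAs, 17.9%, 71.6% and 92.4% of these were recovered. Far more genes, 6097 of 12830, were called in the data for that average. With few changed genes the adjustment is stricter, so these shares do not give the recovery in the data.

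The genes and lists were chosen with earlier results of these data known. Every one of the 38 genes was accounted for. Those that passed a comparison were given with their value in every library and every fold change that passed in the main test. Of their fold changes that did not pass, only some were given. Of each other list the 2 genes that ranked first by adjusted p in the average were named. The alternatives were RLE scaling, no filter, DESeq2 1.42.0, limma 3.58.1 on log2(FPKM + 1) and log2(FPKM + 0.1), counts divided by 4, no mitochondrial genes, only the groups compared, the replicate number as a block, and each library left out. Same-numbered libraries of different groups did not deviate together (correlation from -0.07 to 0.04), so the numbers were not used as pairs. Proteins were planned to be shown and were not used here.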

Additional observations from a re-analysis of the deposited data

Results flagged for a closer look

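In 23 of the 38 genes the effects of siRNA 1 and siRNA 2 differed from each other, by the edgeR test of siRNA 1 against siRNA 2 (39.5% of all tested genes passed it in either direction). Values are log2 fold changes of siRNA 1 over siRNA 2. The differences were -1.25 for HMMR, -1.005 for KIF2C, -0.73 for BUB1, -0.65 for NUSAP1, -0.61 for ANLN, -0.58 for BUB1B and -0.58 for CDC25C. In CENPF the difference was -0.57, in DLGAP5 -0.56, in TTK -0.43, in ASPM -0.42, in NUF2 -0.40, in CCNB2 -0.39 and in CDC20 -0.37. Smaller ones were -0.30 for NDC80, -0.29 for UBE2C, -0.29 for KIF4A, -0.27 for KIF20A, -0.25 for CCNA2 and -0.21 for CDCA8. MKI67 at 1.04, FOXM1 at 0.94 and AURKB at 0.34 differed the other way. KMT2C, the target of both siRNAs, differed by 0.17 and did not pass that test.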

How the results depend on the processing

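Over the 38 genes, 4 comparisons and all alternatives, 2461 of 2698 values kept their direction and side of the threshold, 135 lost the call, 44 gained one, 58 uncalled values changed sign and no call reversed. Of 69 calls, 44 held under every alternative, 14 of 23 between siRNA 1 and siRNA 2. Some calls were lost by a change of method with no library left out. For the average, UBE2C was lost with RLE scaling, no filter, no mitochondrial genes and the replicate block. FOXM1, KIF20A and CENPE for the average, and CDCA8 with siRNA 1, were lost on both limma scales. The 4 rises with siRNA 1 became 1 with no filter on low values, 1 with only the groups compared and 1 with the replicate block, and 0 to 4 with 1 library left out. With 1 library left out the median lay between -0.19 and -0.07 with siRNA 1, 0.03 and 0.11 with siRNA 2, and -0.09 and 0.00 for the average; on log2(FPKM + 1) in limma it was 0.13 with siRNA 2 and -0.01 for the average. The 3 falls with siRNA 2 became 2 to 5 with 1 library left out. For the average, the 8 rises became 5 with no filter and 5 to 8 with 1 library left out, and the 8 falls became 5 with no filter, 5 with either limma scale and 4 to 8 with 1 library left out. The 20 genes lower with siRNA 1 than with siRNA 2 became 12 with no filter, where 33869 genes were tested, and 14 to 22 with 1 library left out. With the replicate block the counts of higher and lower genes were 1 and 10 with siRNA 1, 12 and 3 with siRNA 2, 7 and 7 for the average, and 3 and 19 between the siRNAs. The cause of these shifts was not tested. DESeq2 gave 4 higher and 23 lower between the siRNAs. In data simulated for the average with few changed genes, 17.9% of genes changed by 0.5 on the log2 scale were recovered. The recovery in the data, where far more genes were called, was not measured, and small changes can be missed.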
